A study of Canis lupus familiaris with 23 samples.

Results

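The comparison set 5 canine acanthomatous ameloblastomas (CAA) against 11 canine oral squamous cell carcinomas (COSCC), gene by gene. All libraries whose names begin with either tumor code were taken, which gave 16 of the 23 libraries of the series. The other 7 libraries, of healthy gingiva, served to place each tumor relative to normal tissue. Genes were kept where the filterByExpr rule of edgeR found enough counts in the 16 tumor libraries, which left 15331 of 30951 genes, or 49.5%. The CAA were 3 maxillary and 2 mandibular tumors, and the COSCC 7 maxillary and 4 mandibular tumors. The gingiva comprised 1 maxillary sample and 6 of undetermined jaw. The tumors and the gingiva came from dogs of several breeds, some of them mixed. Each sample carries the code FS or MC, which the labels do not explain. The CAA held 1 FS and 1 MC in the mandible and 1 FS and 2 MC in the maxilla. All 4 mandibular COSCC were MC, and the maxillary COSCC were 6 FS and 1 MC. The maxillary gingiva sample was MC, and the 6 others were 4 FS and 2 MC. No treatment and no age is given for any group.

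Acanthomatous ameloblastoma arises from odontogenic epithelium, the tissue that forms the tooth, and it invades the jaw bone locally without spreading to distant organs. Oral squamous cell carcinoma arises from the keratinocytes that line the mouth, invades the same bone and can metastasize. Both tumors grow next to teeth and gingiva, so a piece of either can hold epithelium, stroma, bone and inflammatory cells in different proportions. The measurements were made on bulk tissue, in which fewer cells of a type and less RNA per cell cannot be told apart.

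Bulk RNA was sequenced after depletion of ribosomal RNA, and the values are raw counts per gene. Total counts ran from 15120326 to 16813220 per library, and the genes tested held 99.3% to 99.9% of them. Levels are given in CPM (counts per 1000000 counts of the library), with library sizes scaled by edgeR's trimmed mean method (TMM). Composition factors of this scaling ran from 0.982 to 1.24 in CAA, from 0.765 to 1.3 in COSCC and from 0.755 to 1.04 in gingiva. The limit of detection was set at 3 counts, which are worth 0.19 CPM at the median library, and this limit covers counting error only. The carcinomas had the largest spread of the 3 groups. The biological coefficient of variation was 0.672 in COSCC, 0.455 in CAA and 0.416 in gingiva. The labels name a separate library for each sample but no animal, so p-values rest on the spread between samples. The main fit pooled that spread over all 23 libraries, gingiva included. The pooled coefficient was 0.567 over the 23 libraries and 0.617 over the 16 tumor libraries alone. For COSCC replicate 6 the labels give a library name with 2 numbers, and it counted as 1 sample. In each of 86 within-group pairs the counts differed by far more than sampling noise, so none was counted as a duplicate.

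Genes are listed by Ensembl identifier, and 0 identifiers matched the RefSeq table of gene names. The files do not pair identifiers with names, so neither the tumor labels nor the cell makeup could be checked against marker genes. For the same reason no gene is given a function, position or sequence. Identifiers are printed for 4 genes, and further genes are described by their values and their place in a fixed order.

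CAA and COSCC differed in 1379 of the 15331 genes (8.99%) at an adjusted p under 0.05 in the quasi-likelihood test of edgeR. Of these, 642 genes (4.19%) were higher in CAA and 737 (4.81%) were lower. The difference was at least 2-fold for 926 of the 1379. At an unadjusted p under 0.05 there were 4600 genes. The fit used all 23 libraries, so the gingiva libraries also entered the spread against which the tumors were compared. Fitted to the 16 tumor libraries alone, the same test called 432 genes, and 430 of these were among the 1379. Across all 15331 genes the median log2 difference, CAA minus COSCC, was -0.07, and the median size of the difference was 0.43. Scaling by library totals moved that median to 0.09 and raised the share of called genes that were higher in CAA from 46.6% to 60.8%. The split between higher and lower therefore depends on the scaling.

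For each gene the number of carcinomas beyond the range of the 5 CAA, on the side of the called difference, was counted. A difference that all 11 carcinomas carry, so that the ranges do not overlap, was termed complete. A called difference that 6 to 10 carcinomas carry was termed partial. Ranges did not overlap in 171 genes (1.12%), with CAA higher in 118 (0.77%) and lower in 53 (0.346%). The test called 166 of the 171, namely 114 of the 118 and 52 of the 53. These 166 made up 12% of the called genes. The partial class held 1153 genes, or 83.6% of those called, of which 479 were higher in CAA and 674 lower. In the remaining 60 called genes (4.35%), 5 or fewer carcinomas lay beyond the CAA range.

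**Figure D1:**
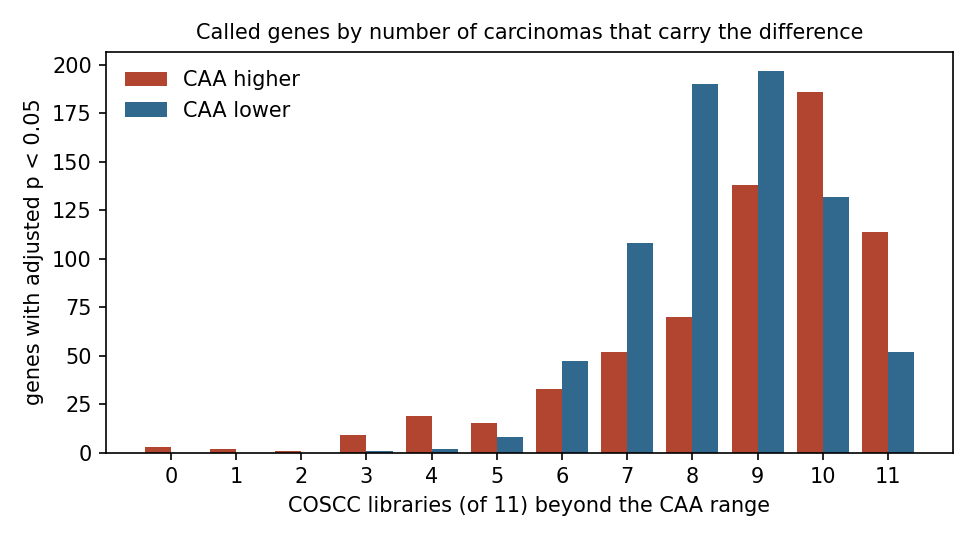
The horizontal axis gives the number of COSCC libraries, of 11, beyond the range of the 5 CAA libraries, and the vertical axis the number of genes with an adjusted p under 0.05, with red bars for genes higher in CAA and blue bars for genes lower in CAA. Genes higher in CAA peak at 10 carcinomas, with 186 genes, and genes lower in CAA at 9 carcinomas, with 197 genes.

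The 2 directions were distributed differently over the carcinomas, as the plot of called genes by number of carcinomas shows. Among genes higher in CAA, 186 were carried by 10 carcinomas, 138 by 9 and 70 by 8. Among genes lower in CAA, 132 were carried by 10 carcinomas, 197 by 9, 190 by 8 and 108 by 7. The difference between these distributions was not tested. Genes called with 5 or fewer carcinomas beyond the CAA range were mostly higher in CAA, 49 against 11. The carcinomas had the larger SD on the log2 scale in only 7 of those 49, against 80.8% of all genes tested. The rule itself favors this contrast, because a wide CAA range leaves few carcinomas beyond it.

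Complete genes were not merely those with large mean differences. The median log2 size was 1.58 in complete genes higher in CAA and 1.26 in those lower. In partial genes it was 1.18 and 1.41. Of the 171 complete genes, 123 differed by at least 2-fold, 66 by at least 4-fold and 34 by at least 8-fold, while 48 differed by less than 2-fold. Spread among the CAA was lower in complete genes, which the rule of separate ranges favors. The median SD of log2(CPM + 0.5) in CAA was 0.34 in complete genes higher in CAA and 0.25 in those lower, against 0.39 in all genes tested. Among the carcinomas it was 0.45 in complete genes lower in CAA, but 0.58 in those higher, close to the 0.59 of all genes tested. Expression in the higher group was moderate. Its median was 41.4 CPM in complete genes higher in CAA and 26.4 CPM in complete genes lower in CAA, against 22.9 CPM over all genes.

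Presence in one tumor and absence in the other was rare. In 17 of the 15331 genes every library of the lower group held at most 3 counts. Of these genes, 1 was in the complete class, and 12 were in the partial class, all with the CAA as the lower group. The complete genes thus differed in level, and CAA-restricted expression with no carcinoma above 3 counts was met in 1 of the 118 genes higher in CAA. The edge of the class is narrow. In the complete gene higher in CAA with the smallest gap, the lowest CAA stood at 66.1 CPM and the highest carcinoma at 65.9 CPM. Just outside, in a gene carried by 10 carcinomas, the lowest CAA stood at 55.2 CPM and the highest carcinoma at 55.5 CPM. For genes lower in CAA the smallest gap was between 30.6 CPM in the lowest carcinoma and 30.5 CPM in the highest CAA, and just outside the class both of these were at 0 CPM.

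The complete genes were ordered by the gap between the groups, among called genes whose higher group averaged 10 CPM or more. The gap is the log2 ratio of the lowest library of the higher group to the highest library of the lower group, each with 0.5 CPM added. With CAA higher, 88 genes entered this order, the median gap was 0.22 and the largest 1.63, and 4 genes had a gap of at least 2-fold. With CAA lower, 39 genes entered, the median gap was 0.1 and the largest 0.54, and 0 genes reached 2-fold. The widest separations in these libraries were therefore of genes higher in CAA. Because the genes were ordered on these values, the values below are a description and each p comes from the fit over all genes.

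ENSCAFG00000004935 had the widest gap of the genes higher in CAA. It stood at 174, 301, 390, 84.2 and 224 CPM in CAA replicates 1 to 5. In the 11 COSCC it ran from 0 CPM over a median of 1.08 CPM to 26.9 CPM in replicate 3. The lowest ameloblastoma stood 3.1-fold above the highest carcinoma, so the groups were far apart in every library. Carcinoma replicates 1, 5 and 6 followed at 6.98, 8.93 and 7.33 CPM, while the other 7 were between 0 and 1.22 CPM. The means were 235 ± 117 CPM (SD, n = 5) and 4.81 ± 8.08 CPM (SD, n = 11), a log2 difference of 5.59 ± 0.98 (SE, adjusted p = 0.00308, edgeR). Gingiva ran from 1.32 over 2.64 to 11.7 CPM (4.71 ± 4.03, SD, n = 7), inside the range of the carcinomas. CAA was higher than gingiva by 5.63 ± 1.19 on the log2 scale (SE, adjusted p = 0.00218, edgeR). For COSCC against gingiva the difference was 0.04 ± 0.89 (SE, adjusted p = 0.981, edgeR).

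The gap narrowed from 3.1-fold to 2.37-, 2.25- and 2.11-fold in the next 3 genes of that order. The second stood at 103, 202, 170, 133 and 710.3 CPM in the CAA and at 0.344 to 43.3 CPM, with a median of 5.38 CPM, in the COSCC. Its 5th ameloblastoma was well above the other 4, and no carcinoma reached the lowest ameloblastoma. Its log2 difference was 4.38 ± 0.77 (SE, adjusted p = 0.00308, edgeR), and gingiva, at 11.5 to 72.4 CPM, overlapped the carcinomas, with its mean of 36 ± 19.1 CPM (SD, n = 7) between those of the tumors.

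The third gene varied less, relative to its mean, than the first and the second in both tumors. It stood at 319 to 635 CPM in the CAA, with a median of 388 CPM, and at 46.4 to 141 CPM in the COSCC, with a median of 67.6 CPM. Gingiva, at 51.9 to 130 CPM, lay wholly within the range of the carcinomas. The log2 difference between the tumors was only 2.4 ± 0.24 (SE), yet its adjusted p was 1.34e-05 (edgeR), lower than that of the genes before it. The fourth gene was the most abundant of them, at 728 to 1761 CPM in the CAA, 6.02 to 346 CPM in the COSCC and 78.3 to 439 CPM in gingiva. It differed between the tumors by 2.96 ± 0.53 on the log2 scale (SE, adjusted p = 0.00327, edgeR). In all 4 genes CAA was higher than gingiva at an adjusted p of 0.0198 or less (edgeR), while COSCC against gingiva was not called. The fifth gene differed between the tumors by 1.65 ± 0.17 on the log2 scale (SE, adjusted p = 1.34e-05, edgeR). With a gap of 1.98-fold, it was placed the other way relative to gingiva. COSCC fell by 1.33 against gingiva on the log2 scale (adjusted p = 1.26e-05, edgeR), and the value for CAA against gingiva was 0.32 ± 0.2 (SE, adjusted p = 0.232, edgeR).

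ENSCAFG00000047610 led the complete genes that were lower in CAA. It stood at 13.7, 15.2, 13.6, 16.6 and 10.8 CPM in CAA replicates 1 to 5. In the COSCC it ran from 24.4 CPM over a median of 36.1 CPM to 85.9 CPM. The 5 ameloblastomas lay within a narrow band, and the lowest carcinoma stood 1.46-fold above the highest of them. The means were 14.0 ± 2.15 CPM (SD, n = 5) and 40.4 ± 20.3 CPM (SD, n = 11), a log2 difference of -1.53 ± 0.29 (SE, adjusted p = 0.00517, edgeR). Gingiva was higher still, from 42.8 over 61.9 to 94.0 CPM (64.6 ± 16.6, SD, n = 7), and did not overlap the CAA. Against gingiva the gene fell by 2.21 on the log2 scale in CAA (adjusted p = 0.00013, edgeR) and by 0.68 in COSCC (adjusted p = 0.0318, edgeR). Both tumors were thus below gingiva, the ameloblastomas more so.

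The second gene of that order showed a larger difference between the means with a gap of similar width. It stood at 1.47, 2.19, 4.74, 5.0 and 2.67 CPM in the CAA and at 7.4 to 122 CPM, with a median of 36.3 CPM, in the COSCC. Every carcinoma was above every ameloblastoma, though the carcinomas spread over more than an order of magnitude. The log2 difference was -4.1 ± 0.65 (SE, adjusted p = 0.00151, edgeR). Gingiva, at 30.3 to 120 CPM, lay inside the range of the carcinomas and above every CAA. The third gene had CAA between 19.9 and 57.5 CPM, COSCC between 73.4 and 153 CPM and gingiva between 47.1 and 145 CPM. Gingiva overlapped both tumors there, and the log2 difference between the tumors was -1.48 ± 0.29 (SE, adjusted p = 0.00645, edgeR).

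The fourth gene was placed the other way round relative to gingiva. It stood at 2.7 to 5.2 CPM in the CAA, 2.05 to 9.25 CPM in gingiva and 6.67 to 103 CPM in the COSCC. Here the carcinomas were above gingiva, by 2.32 ± 0.56 on the log2 scale (SE, adjusted p = 0.00394, edgeR), and CAA against gingiva was not called. Its call between the tumors (log2 difference -2.65 ± 0.65, SE, adjusted p = 0.0192, edgeR) was lost without CAA replicate 2, 3 or 5 and in the fit of the 16 tumor libraries.

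**Figure D2:**
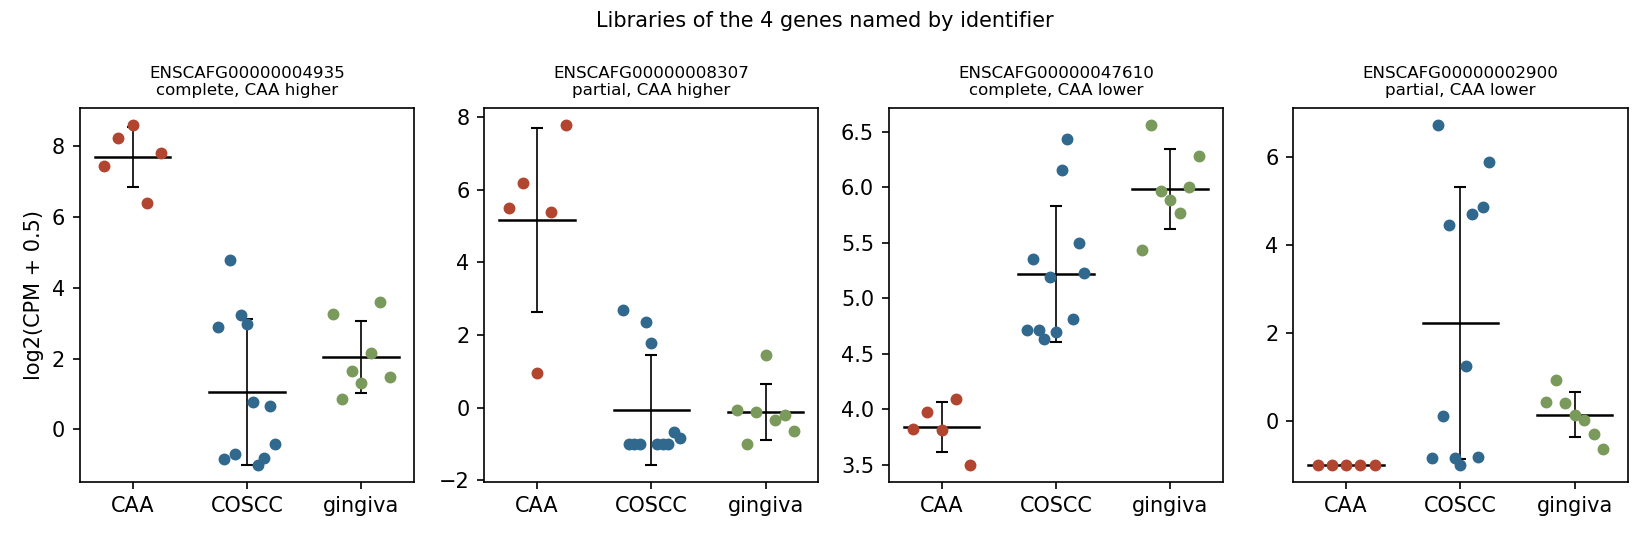
Each point is a library, with log2(CPM + 0.5) on the vertical axis, for CAA (5, red), COSCC (11, blue) and gingiva (7, green) in the 4 genes named by identifier; lines are means and bars SDs of these log values. In ENSCAFG00000004935 every CAA lies above every COSCC, in ENSCAFG00000047610 every CAA lies below, and in ENSCAFG00000008307 and ENSCAFG00000002900 the groups overlap in part.

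Partial genes were ordered by the size of the log2 difference, again where the higher group averaged 10 CPM or more, which 378 of the 479 genes higher in CAA and 551 of the 674 lower in CAA had. ENSCAFG00000008307 was first of those higher in CAA. It stood at 45.0, 72.6, 1.46, 41.3 and 220 CPM in CAA replicates 1 to 5. In the COSCC the lowest and the median were 0 CPM, with 6 libraries at 0, and the highest was 5.91 CPM. The overlap came from CAA replicate 3, at 1.46 CPM, and from carcinoma replicates 1, 5 and 6, at 5.91, 4.58 and 2.92 CPM. The other 8 carcinomas were below every ameloblastoma. The log2 difference was 5.92 ± 1.16 (SE, adjusted p = 0.00636, edgeR). Gingiva ran from 0 over 0.372 to 2.22 CPM. CAA was above gingiva by 7.07 ± 1.5 on the log2 scale (SE, adjusted p = 0.00229, edgeR), and COSCC by 1.15 ± 1.17 (SE, adjusted p = 0.462, edgeR).

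The second partial gene higher in CAA was highest in gingiva. It stood at 13.1 to 56.7 CPM in gingiva, with a median of 28.8 CPM, and at 3.39, 10.9, 13.3, 1.76 and 30.1 CPM in the CAA. In the COSCC the median was 0.061 CPM and the highest value, in replicate 5, was 2.15 CPM. COSCC replicate 5 was the only carcinoma to reach the lowest ameloblastoma. COSCC fell by 6.68 against gingiva on the log2 scale (adjusted p = 1.64e-05, edgeR), while the value for CAA against gingiva was -1.55 ± 0.88 (SE, adjusted p = 0.2, edgeR). The difference between the tumors was 5.14 ± 0.81 on the log2 scale (SE, adjusted p = 0.0015, edgeR).

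Among partial genes lower in CAA the largest differences were in genes that the ameloblastomas hardly expressed. ENSCAFG00000002900 stood at 0 CPM in all 5 CAA. In the COSCC it ran from 0 CPM over a median of 1.86 CPM to 106 CPM. Replicates 2, 4, 8, 10 and 11 stood at 106, 21.5, 25.8, 28.7 and 58.9 CPM, whereas replicates 1, 5 and 9 were above 0 but under the limit of 3 counts. The carcinomas thus fell far apart, and the count of 10 beyond the CAA range includes libraries whose level cannot be told from absence. Gingiva ran from 0.142 over 0.593 to 1.4 CPM. With the CAA set to 3 counts per library, the COSCC mean of 22.2 ± 33.6 CPM (SD, n = 11) was at least 116-fold higher than in CAA. Without COSCC replicate 2 the mean was 13.8 CPM and the bound 72.2-fold, and the median carcinoma gave 9.79-fold. The adjusted p of CAA against COSCC was 0.0186 (edgeR). COSCC was above gingiva by 5.06 ± 1.5 on the log2 scale (SE, adjusted p = 0.0158, edgeR), and for CAA against gingiva the adjusted p was 0.0973 (edgeR). The call between the tumors was lost without CAA replicate 2, 3 or 5, with adjusted p of 0.0527, 0.0559 and 0.0521, and in the fit of the 16 tumor libraries, with 0.0673 (edgeR).

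The next gene of that order reached its highest level in 1 library. COSCC replicate 1 stood at 3447 CPM, replicate 9 at 49.2 CPM and replicate 11 at 35.6 CPM, while the CAA did not exceed 0.539 CPM and gingiva did not exceed 0.248 CPM. Only 6 carcinomas lay beyond the CAA range, and the median carcinoma was at 0.61 CPM. Its adjusted p was 0.036 (edgeR), and the call was lost without CAA replicate 1, 2, 3 or 5 but kept without COSCC replicate 1. The 2 genes that followed were spread over more carcinomas. The first of them was at or below 0.111 CPM in every CAA and reached 50.8 CPM in COSCC replicate 4, with a median carcinoma at 2.98 CPM. The other was at or below 0.195 CPM in every CAA and reached 93.7 CPM in COSCC replicate 9, with 9 of 11 carcinomas beyond the CAA range. Their adjusted p between the tumors were 0.0186 and 0.0135 (edgeR), and the first lost its call without CAA replicate 2, 3 or 5. In both, COSCC was higher than gingiva, by 6.34 ± 1.53 and 6.71 ± 1.4 on the log2 scale (SE, adjusted p = 0.00408 and 0.00152, edgeR).

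The exceptions were spread unevenly over the carcinomas. In 318 called genes 10 of the 11 carcinomas lay beyond the CAA range, and the remaining carcinoma was replicate 5 in 101 genes and replicate 6 in 93. It was replicate 3 in 41 genes and replicate 1 in 37. These 4 libraries, pooled because their counts were the highest, together accounted for 272 genes, or 85.5%. Each of the other 7 was the exception in 1 to 18 genes. Over all 1153 partial genes, replicate 5 lay inside or past the CAA range in 55.2%, replicate 6 in 43.6%, replicate 3 in 43.5% and replicate 1 in 36.3%. For replicates 2, 4 and 7 these shares were 14.9%, 15.4% and 12.7%, and for replicates 8, 9, 10 and 11 they were 4.42%, 3.9%, 8.59% and 5.03%. Every carcinoma was thus an exception in some partial genes. Shares over all genes tested are not given for single carcinomas. Replicates 1 and 6 came from the maxilla and replicates 3 and 5 from the mandible. Their composition factors were 1.15, 1.01, 1.3 and 1.1 for replicates 1, 6, 3 and 5. With library totals in place of TMM, 288 genes were carried by 10 of 11, with replicate 6 the exception in 85 and replicate 5 in 79.

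**Figure D3:**
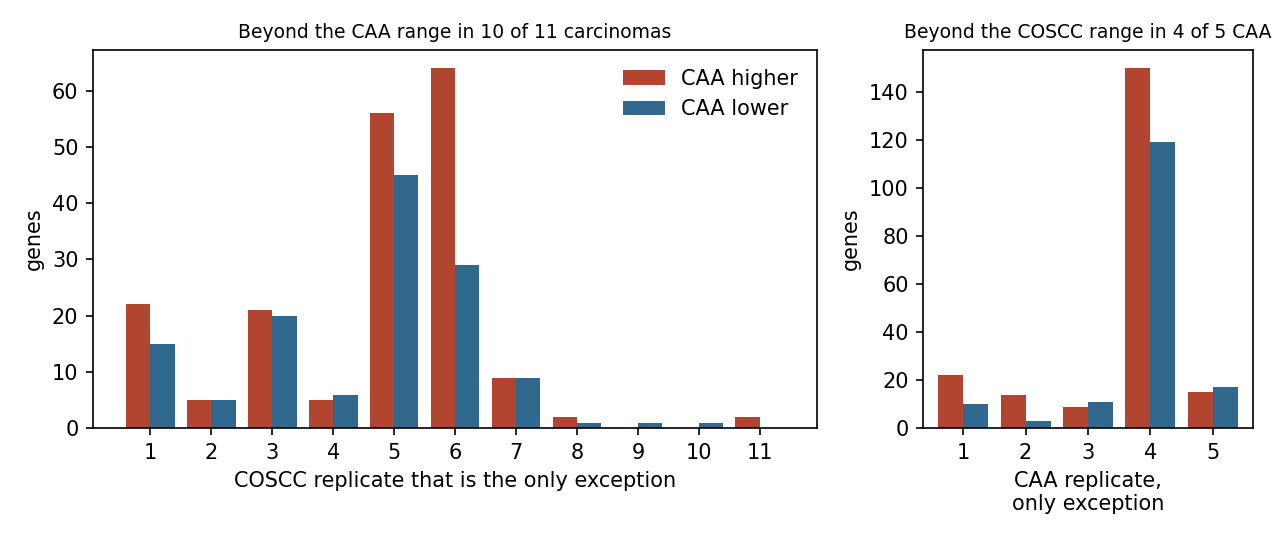
Bars count genes for which a single library fails to separate, by replicate number and direction (red, CAA higher; blue, CAA lower): on the left called genes carried by 10 of 11 carcinomas, on the right called genes in which 4 of 5 CAA lie beyond the COSCC range. COSCC replicates 5 and 6 on the left, with 101 and 93 genes, and CAA replicate 4 on the right, with 269 genes, stand above the others.

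Among the ameloblastomas the exceptions fell mainly on 1 library. In 370 called genes 4 of the 5 CAA lay beyond the range of all carcinomas, and the fifth was replicate 4 in 269 of them (72.7%), 150 with CAA higher and 119 with CAA lower. The other 4 replicates were the exception in 17 to 32 genes each. CAA replicate 4 also had the lowest composition factor of the CAA, 0.982 against 1.12 to 1.24, and its part in this count was not tested beyond the change of scaling. With library totals replicate 4 was the exception in 281 of 370 genes (75.9%). Without CAA replicate 4, 614 genes separated completely, against 205 to 224 without any other CAA. Without COSCC replicate 5 or replicate 6 the count was 317 each. Removing any library leaves fewer values to hold apart.

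How firmly a gene was called followed how many carcinomas carried it, though both descriptions rest on the same libraries. Of the 166 complete and called genes, 103 (62.0%) kept their call when each of the 16 tumor libraries was left out in turn, and 141 (84.9%) kept it in the fit of the 16 tumor libraries. Of the 318 genes carried by 10 carcinomas, 62 (19.5%) and 150 (47.2%) did. Of the 835 genes carried by 6 to 9 carcinomas, 21 (2.51%) and 135 (16.2%) did. Of the 60 genes carried by 5 or fewer, 0 kept the call in every leave-one-out fit and 4 in the tumor fit. Over all 1379 called genes the counts were 186 (13.5%) and 430 (31.2%). The number of called genes ran from 274 without CAA replicate 3 to 2244 without COSCC replicate 3. Dropping CAA replicate 1, 2 or 5 lowered the number of called genes to 808, 331 and 330, whereas dropping CAA replicate 4 raised it to 2066. Among the carcinomas, the fits lacking COSCC replicate 5 and COSCC replicate 9 called 2240 and 840 genes.

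Under TMM scaling, gingiva lay nearer to the carcinomas than to the ameloblastomas for most complete genes. A position was computed on the log2 scale, on which 0 is the COSCC mean and 1 the CAA mean. Its median over the 118 complete genes higher in CAA was 0.291, and gingiva was nearer to COSCC in 82 (69.5%). Over the 53 complete genes lower in CAA the median was 0.36, and gingiva was nearer to COSCC in 30 (56.6%). In partial genes the shares were 67.0% of 479 and 57.6% of 674. No share over all genes tested is given beside these, so they cannot be told from the general placement of gingiva. The genes were also chosen on the tumor libraries that set both ends of the scale. The position was not recomputed under other scalings. Gingiva fell past the COSCC mean, so that the carcinomas lay between gingiva and CAA, in 27 complete genes higher in CAA and 12 lower. It fell past the CAA mean in 13 and 9.

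**Figure D4:**
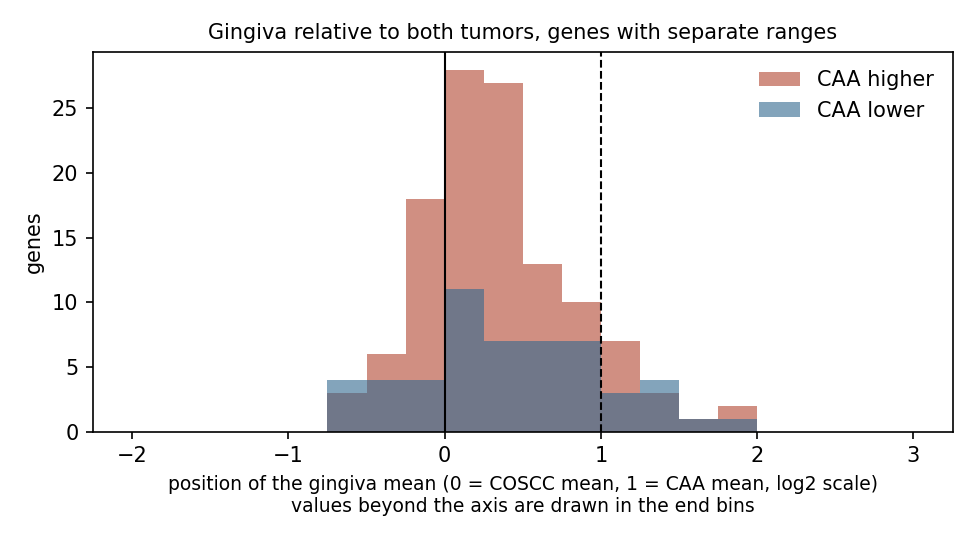
The horizontal axis gives the place of the gingiva mean on the log2 scale between the COSCC mean (0) and the CAA mean (1), and the vertical axis the number of complete genes, red for the 118 higher in CAA and blue for the 53 lower. Most genes lie between 0 and 1, with medians of 0.291 and 0.36.

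By ranges rather than means, 59 of the 118 complete genes higher in CAA had gingiva libraries that overlapped only the carcinomas. In 6 they overlapped only the CAA, in 51 both, and in 2 every gingiva library was beyond the CAA. Over all 15331 genes gingiva overlapped only the carcinomas in 13.8%, only the CAA in 0.841%, both in 83.6% and neither in 1.8%. The 11 carcinomas are more libraries than the 5 CAA and spread more widely, and the part of this in the counts was not tested. For the 53 lower in CAA, gingiva overlapped only the carcinomas in 18, only the CAA in 8 and both in 27. A clean separation of the tumors thus left normal gingiva across both ranges in 51 of 118 and 27 of 53 genes.

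The tests against gingiva came from the same fit, share the 7 gingiva libraries with each other, and use the CAA and COSCC libraries that chose the genes. Their counts describe these genes and support nothing further. Shares over all genes tested are given for each tumor alone, not for both calls jointly. Over all 15331 genes CAA was higher than gingiva in 13.9% and lower in 10.9%, and COSCC was higher in 20.2% and lower in 13.5%. Of the 118 complete genes higher in CAA, CAA was called higher than gingiva in 68 (57.6%) and COSCC lower in 43 (36.4%). In 58 only the rise in CAA was called and in 35 only the fall in COSCC. In 6 both were called in these opposite directions, in 4 both tumors were higher than gingiva, in 2 both were lower and in 13 neither was called. The median log2 difference from gingiva over the 118 was 1.06 for CAA and -0.38 for COSCC. By these medians CAA lay farther from gingiva than COSCC in these 118 genes, which were chosen on the tumor libraries. Over all genes tested the calls against gingiva were more for COSCC, 5159 with 11 libraries, than for CAA, 3801 with 5.

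Of the 53 complete genes lower in CAA, CAA was called lower than gingiva in 26 (49.1%) and COSCC higher in 21 (39.6%). In 20 only the fall in CAA was called and in 18 only the rise in COSCC. In 1 both were called, in 5 both tumors were lower than gingiva, in 2 both were higher and in 7 neither was called. Median log2 differences from gingiva were -0.53 for CAA and 0.29 for COSCC.

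Partial genes showed the same arrangement in one direction and a more even one in the other. Of the 479 higher in CAA, CAA was called higher than gingiva in 244 (50.9%) and COSCC lower in 129 (26.9%), with medians of 0.85 and -0.21. Of the 674 lower in CAA, CAA was called lower than gingiva in 247 (36.6%) and COSCC higher in 250 (37.1%), with medians of -0.72 and 0.55. In 107 of the 479 and 178 of the 674 neither tumor was called against gingiva. Scaling by library totals moved the median log2 of all genes from 0.04 to 0.43 for CAA against gingiva and from 0.14 to 0.36 for COSCC against gingiva. Directions against gingiva are therefore relative to that shift. Under that scaling 83.9% of called genes were higher for CAA, against 56.1% with TMM, and 82.6% for COSCC.

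A wide difference in some of the carcinomas need not pass a test of means. Genes were therefore collected in which 3 to 5 of the 11 carcinomas lay at least 4-fold beyond the CAA range, with the highest library at 10 CPM or more. Because these genes were chosen on their values, they are described without a test. In 200 genes (1.3% of those tested) the carcinomas were above the CAA and in 203 (1.32%) below. The edgeR test called 90 and 68 of them, against 8.99% of all genes tested, but it used the libraries on which they were chosen. In most of these genes further carcinomas lay beyond the range by less than 4-fold. Counting any distance beyond the CAA range, 6 or more carcinomas lay beyond it in 173 of the 200 genes and 196 of the 203, and 82 and 50 of the genes also belong to the partial class.

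**Figure D5:**
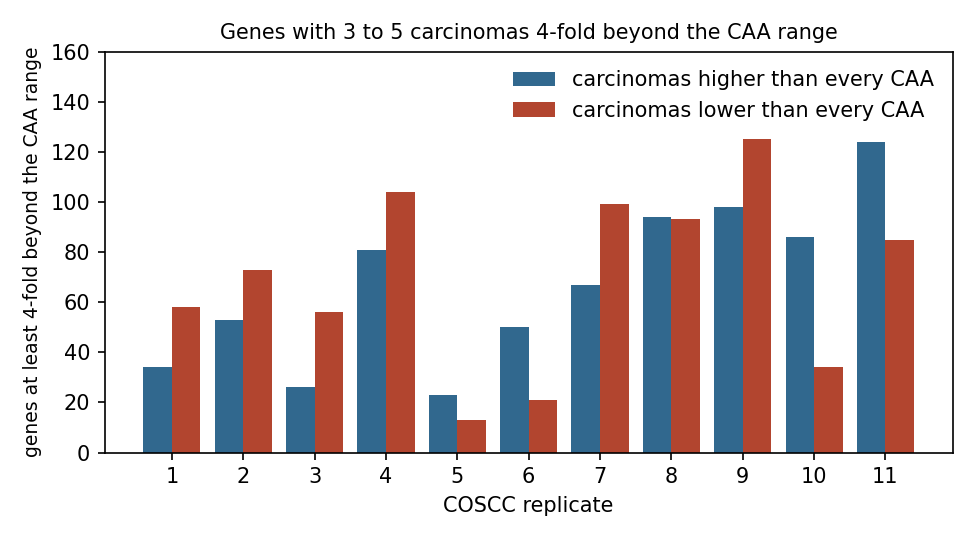
The horizontal axis gives the COSCC replicate and the vertical axis the number of genes in which it is among the 3 to 5 carcinomas at least 4-fold beyond the CAA range, blue for carcinomas above and red for carcinomas below every CAA. Counts run from 23 for replicate 5 to 124 for replicate 11 above the CAA, and from 13 for replicate 5 to 125 for replicate 9 below.

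No single subset of carcinomas accounted for these genes. The 200 genes fell into 105 different combinations of replicates and the 203 into 119. As the plot of genes by carcinoma shows, replicate 11 took part in 124 of the 200 (62.0%), replicate 9 in 98 and replicate 8 in 94. Below the CAA, replicate 9 took part in 125 of the 203 (61.6%), replicate 4 in 104 and replicate 7 in 99. COSCC replicate 5 took part least often in both directions, in 23 and 13 genes, and replicate 10 was uneven, with 86 above and 34 below. Gingiva was placed differently in the 2 directions, a difference that was not tested. Where carcinomas were above the CAA, all gingiva libraries were also above in 34 of 200 genes and overlapped the CAA in 162. Over all genes tested gingiva lay wholly above the CAA in 6.58% and wholly below in 8.98%. Where carcinomas were below, all gingiva libraries were also below the CAA in 123 of 203 and overlapped it in 76. In those 123 genes every ameloblastoma was thus above every gingiva library.

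The most frequent combination was COSCC replicates 4, 6 and 11, with 18 genes (9.0% of the 200). In these genes the median level in the 3 carcinomas ran from 6.53 to 9280 CPM, with a middle value of 37.2 CPM. The highest CAA had a median of 3.04 CPM and the highest of the other 8 carcinomas 7.8 CPM. Replicate 4 came from the mandible, and replicates 6 and 11 from the maxilla. The edgeR test of means called 1 of the 18, against 8.99% of all genes tested. Gingiva had a low median in most of them, 0.927 CPM, but its highest library exceeded the highest CAA in 18 of 18 genes and reached the lowest of the 3 carcinomas in 11. That highest library was gingiva replicate 3 in 13 genes, replicate 7 in 3 and replicate 1 in 2. In 16 of the 18 genes 3 or more gingiva libraries stood above the highest CAA, and in 7 genes no gingiva library reached the lowest of the 3 carcinomas. The source of these levels was not tested.

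Jaw was the only site label that the tumor groups shared. Within the maxilla, 3 CAA against 7 COSCC, 563 genes were called in a model of the 16 tumor libraries with tumor type by jaw. The same maxillary tumors fitted with gingiva and without the mandibular tumors gave 2302 genes. The fits differ in the libraries that set the spread. Within the mandible, 2 CAA against 4 COSCC, 0 genes were called by edgeR, and 882 (5.75%) had an unadjusted p under 0.05. A test of whether the difference between the tumors was itself different in maxilla and mandible called 0 genes (edgeR). Its smallest adjusted p was 0.451, and 1192 genes (7.78%) had an unadjusted p under 0.05 (edgeR). The mandible groups are small, so this does not show that the tumor difference was alike in both jaws. Maxilla was not tested against mandible directly. All 4 mandibular carcinomas had the code MC and 6 of the 7 maxillary ones FS. Among the carcinomas, jaw and code therefore can hardly be told apart. The named genes had the same sign in both jaws. ENSCAFG00000004935 differed by 6.74 in the maxilla and 4.42 in the mandible on the log2 scale. For ENSCAFG00000047610 the values were -1.84 and -1.0, and for ENSCAFG00000008307 they were 6.07 and 5.64.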

How the data were processed

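Raw counts per gene for 23 libraries were used as deposited by the authors. The submitters' processing notes name STAR and the build canFam3. The counting program, the use of strand and the annotation release are not given in the sources used here, so reads shared by overlapping or near-identical genes cannot be traced. Per the labels' protocols, RNA was extracted in TRIzol, purified on columns with DNase, and made into directional libraries. All columns were matched to samples, with 0 left over.

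Genes were kept by filterByExpr on the 16 tumor libraries. Counts were scaled by TMM and tested in edgeR 4.0.16 (R 4.3.3; glmQLFit and glmQLFTest, a mean per group, 23 libraries). Calls are Benjamini-Hochberg adjusted p under 0.05 over 15331 genes. Standard errors are the log2 difference divided by the square root of F, an approximation. CPM use TMM-scaled sizes over the genes tested, and SDs of log values use log2(CPM + 0.5). The procedure was tested on simulated data in which each gene had the same spread in all groups. That test therefore does not bear on the larger spread of the carcinomas.

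The alternatives were limma 3.58.1 (voom with sample weights), DESeq2 1.42.0, other scalings and filters, covariates for jaw and code, and each library left out. Named genes were the first per direction by gap (complete) and by log2 difference (partial) at 10 CPM or more. With no symbols, the planned gene lists and marker checks were not run. The comparison, the rules and the lists were chosen with earlier results of these data known. Leaving out gingiva libraries, leaving out COSCC replicates 3 and 8 together, and the jaw interaction were chosen after seeing the data. So were totals of all genes in the table, the recount of exceptions under library totals, and the pooling of 4 carcinomas as exceptions.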

Additional observations from a re-analysis of the deposited data

Results flagged for a closer look

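In the second gene of the complete order with CAA higher, CAA replicate 5 stood at 710.3 CPM and the next highest CAA at 202 CPM, a gap beyond Dixon's limit for 5 samples. In ENSCAFG00000008307, gingiva replicate 4 stood at 2.22 CPM and the next highest gingiva library at 0.46 CPM. In the third partial gene lower in CAA, gingiva replicate 7 stood at 0.923 CPM and the next at 0.165 CPM. For normally distributed values chance places about 1 in 20 groups beyond this limit, and of 26 sets tested here 3 were, against about 1.3 by chance. These values are CPM of genes ordered on their values, so that rate is only a rough guide. No COSCC set is among the 3 flagged. Yet in the second partial gene lower in CAA, COSCC replicate 1 stood at 3447 CPM and the next carcinoma at 49.2 CPM.

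In 7 complete genes the tumors were called in opposite directions against gingiva. CAA was the higher tumor in 6 of them, with log2 differences between the tumors of 0.81 to 3.11, and the lower tumor in 1, with -2.4. The genes were chosen on these libraries, so their difference between the tumors is a description. No share of opposite calls over all genes tested is given beside this count.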

How the results depend on the processing

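The count of genes called between CAA and COSCC, 1379, was 2852 with DESeq2, 5887 with limma voom, 432 in the 16 tumor libraries alone, 318 in those libraries with jaw added as a covariate and 2302 in maxillary tumors only. Leaving out 1 library gave 274 to 2244. The partial count, 1153, was 2364 with DESeq2, 4276 with limma voom, 696 without a filter on low counts, 287 in the 16 tumor libraries alone and 186 in those with jaw added, and 142 to 1793 with 1 library left out. The complete count, 171, stayed between 164 and 196 under the other scalings and filters. It was 2251 in maxillary tumors only, which have fewer libraries to hold apart, and 170 to 614 with 1 library left out. Of the 171 genes, 165 remained complete under median-of-ratios scaling, 109 under library totals and 108 under both. The count of genes with 3 to 5 carcinomas 4-fold beyond the CAA range, 403 in both directions, became 1280 at 2-fold and 136 at 8-fold. With 1 CAA library left out it was 420 to 565, and it was not recounted without single carcinomas. CAA against gingiva, 3801 genes, became 6841 with limma voom and 2257 to 4175 with 1 library left out. COSCC against gingiva, 5159 genes, stayed within 1.5 times in all 31 alternatives.

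Replicate numbers are shared between groups, but not every same-numbered pair deviated together. The labels link no same-numbered samples, so a block by replicate rests on the numbering alone. Over 17 pairs the mean correlation was 0.017. Of the 5 CAA and COSCC pairs, 3 correlated over 0.1, with a range of -0.015 to 0.213, and 1 of 5 CAA correlated best with its own number. With a replicate block the called count was 155, the partial count 84, and the adjusted p of ENSCAFG00000008307 0.0753 and of ENSCAFG00000002900 0.104 (edgeR). For ENSCAFG00000002900 the adjusted p was 0.0673 in the 16 tumor libraries and 0.0813 with jaw added (edgeR). ENSCAFG00000004935 and ENSCAFG00000047610 kept direction and call in all 30 alternatives. No named gene reversed. The causes of these changes were not tested unless stated. Depth limits genes near 3 counts per library.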
